A study of Mus musculus with 32 samples.

Results

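Hikeshi, Sytl2 and Isg20 are 3 genes of mouse chromosome 7, the chromosome that carries the targeted gene Nox4, and their transcript ratios were followed in 4 tissues of Nox4 knockout mice. They were taken by gene symbol from the array's probe annotation, which gave 3 of 17053 genes on the array (symbols, or probes without a symbol), each with 1 probe (numbers 20192 for Hikeshi, 3282 for Sytl2 and 6450 for Isg20). Hikeshi was selected on its kidney values and Sytl2 and Isg20 on their brain values, so those values are described here without a test. In RefSeq gene order, counting protein-coding genes only, Hikeshi is gene 10 and Sytl2 gene 14 after Nox4, whereas Isg20 lies 109 genes before it and is a neighbour in a loose sense only.

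The study compared brain, kidney, muscle and pancreas of 4 male Nox4 -/- mice on a C57BL/6 background, aged 17 weeks, with a pool of RNA from male wild-type mice of the same strain and age. The pool came from 4 animals by the design text and from 6 by the labelling protocol, so its size is not settled. Each knockout animal gave all 4 tissues, and each tissue sample was hybridised on 2 cDNA microarrays with the dyes Cy3 and Cy5 exchanged, 32 arrays in all. The labels do not say how the Nox4 allele was made or in which cells.

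Hikeshi carries the chaperone HSP70 into the nucleus during heat stress, when the usual import routes are slowed. Sytl2 (also called Slp2) is a synaptotagmin-like protein that binds the GTPase Rab27 and helps secretory vesicles dock at the plasma membrane. Isg20 is an interferon-induced exonuclease that degrades RNA and limits the growth of RNA viruses. Genes close to a targeted locus are inherited together with it when a knockout line is bred, so a change in a neighbour that recurs in every tissue is one pattern looked for around a knocked-out gene. The comparison of the 4 tissues asked whether these genes were shifted alike in all of them.

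Values are given as log2 ratios, with the knockout likely as numerator, so that negative values stand for less transcript than in the pool. Nox4 itself is named by 0 of 20794 probes, and the targeted transcript therefore gave no check of labels or direction. The 2 arrays of an animal correlated below 0 across probes in 14 of 16 cases (r from −0.58 to 0.063, without values at the floor), and results with the sign of the Cy3 arrays turned are given beside the main ones. None of the arrays held a floor value on a member's probe. The tissues were each set against their own pool, so the labelled tissue could not be checked against marker genes. In bulk tissue fewer cells of a type and less RNA per cell cannot be told apart. Limma, a linear model with moderated variances fitted across all genes, called no gene in a single tissue at a Benjamini-Hochberg adjusted p under 0.05: 0 of 16729 genes tested for brain, 0 of 16825 for kidney, 0 of 16662 for muscle and 0 of 16377 for pancreas (0% in each). Without adjustment 691 brain genes (4.13%), 1562 kidney genes (9.28%), 1215 muscle genes (7.29%) and 477 pancreas genes (2.91%) had a limma p under 0.05.

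Hikeshi was below the pool in kidney on every array. With the knockout in Cy5 its log2 ratios in kidney were −0.36, −0.42, −0.33 and −0.34 in animals 1 to 4, and with the knockout in Cy3 they were −0.53, −0.30, −0.23 and −0.33. Both dye orientations thus gave low values of similar size, with means of −0.36 and −0.34. Averaged per animal the mean was −0.35 ± 0.070 (SD, n = 4), or 0.783 of the pool's level. Over all genes in kidney, 0.899% lay below 0 on all 8 arrays and 9.86% below 0 in all animals measured. The pool is the only control of a tissue, so a low level in the 4 knockout animals and a high level in the pool cannot be told apart.

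In the other tissues Hikeshi had no common direction. In brain the animal values were −0.046, −0.023, 0.059 and 0.20, with a mean of 0.049 ± 0.11 (SD, n = 4; limma, adjusted p = 0.816). In muscle they were 0.23, 0.33, −0.032 and −0.23, with a mean of 0.074 ± 0.25 (SD, n = 4; limma, adjusted p = 0.846). In pancreas they were 0.18, 0.39, −0.49 and 0.0060, with a mean of 0.022 ± 0.37 (SD, n = 4; limma, adjusted p = 0.995). The 4 kidney values lay below every brain and muscle value, while pancreas animal 3 was lower than any of them. The 95% intervals of the means reached from −0.10 to 0.20 in brain, −0.21 to 0.35 in muscle and −0.38 to 0.43 in pancreas.

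**Figure D1:**
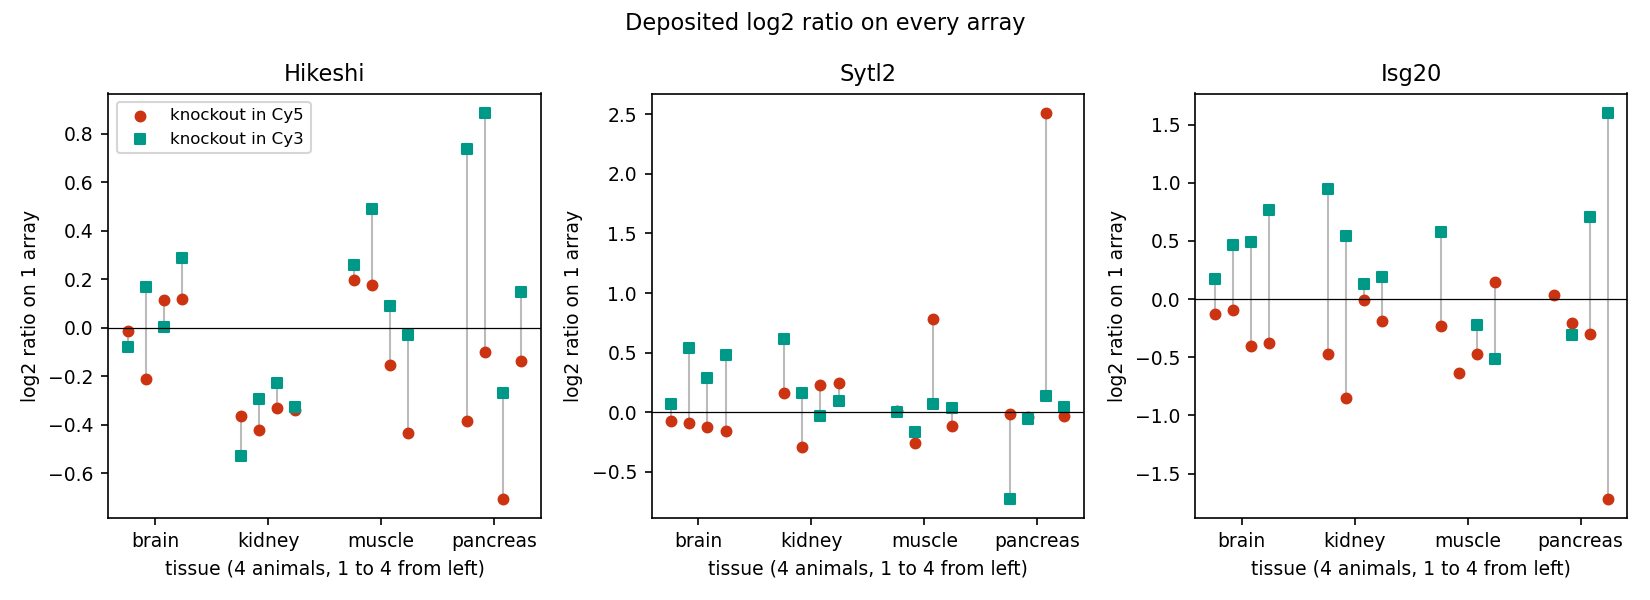
Log2 ratio on each array (vertical axis) for Hikeshi, Sytl2 and Isg20 in 4 tissues, with the 4 animals of a tissue side by side and a grey line joining an animal's 2 arrays (red circles, knockout in Cy5; green squares, knockout in Cy3); vertical scales differ between panels. Hikeshi in kidney is below 0 on all 8 arrays, and Sytl2 and Isg20 in brain are below 0 on the 4 Cy5 arrays and above 0 on the 4 Cy3 arrays.

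Sytl2 had a mean above the pool in all 4 tissues, as had 5.46% of 16257 genes measured in all of them. In brain its values with the knockout in Cy5 were −0.074, −0.093, −0.12 and −0.16, and with the knockout in Cy3 they were 0.074, 0.54, 0.29 and 0.48. The sign therefore followed the dye on all 8 brain arrays. The brain mean of 0.12 ± 0.096 (SD, n = 4) is the remainder of Cy5 arrays at −0.11 and Cy3 arrays at 0.35. Means of opposite sign in the 2 orientations were found for 63.1% of genes in brain, and 12.5% had a wider gap between orientations than Sytl2.

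Outside brain the Sytl2 ratio varied between animals more than it departed from 0. In kidney the animals were at 0.39, −0.063, 0.098 and 0.17, with a mean of 0.15 ± 0.19 (SD, n = 4; limma, adjusted p = 0.596). Kidney was the tissue with most arrays on 1 side, 6 of 8 above 0. In muscle the animals were at 0.0080, −0.21, 0.43 and −0.039, with a mean of 0.046 ± 0.27 (SD, n = 4; limma, adjusted p = 0.911). In pancreas they were at −0.37, −0.050, 1.33 and 0.0060, with a mean of 0.23 ± 0.75 (SD, n = 4; limma, adjusted p = 0.991). Only 6.75% of genes in pancreas had a larger SD. Animal 3 set both of these means: it held the highest value in muscle and in pancreas, where its Cy5 array read 2.51 and its Cy3 array 0.14. Without animal 3 the mean was −0.081 in muscle and −0.14 in pancreas.

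Isg20 showed the widest gap between dye orientations of the 3 genes in brain, kidney and pancreas. In brain its Cy5 arrays were at −0.13, −0.096, −0.40 and −0.38 and its Cy3 arrays at 0.18, 0.47, 0.50 and 0.76. In kidney the Cy5 arrays were at −0.48, −0.85, −0.0050 and −0.19 and the Cy3 arrays at 0.95, 0.54, 0.13 and 0.19. All 8 arrays of both tissues thus took the sign of their orientation. Orientation means differed in sign for 67.9% of genes in kidney. Only 3.62% of genes in brain and 1.81% in kidney had a wider gap. The averages over orientations were close to 0 by comparison: 0.11 ± 0.090 (SD, n = 4) in brain, where the animals were at 0.022, 0.18, 0.047 and 0.19, and 0.035 ± 0.16 (SD, n = 4; limma, adjusted p = 0.886) in kidney, where they were at 0.24, −0.16, 0.063 and −0.00050.

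In muscle and pancreas 1 animal each lacked a Cy3 value for Isg20 and was left out of the fit. The 3 remaining muscle animals were at 0.17, −0.35 and −0.18, with a mean of −0.12 ± 0.27 (SD, n = 3; limma, adjusted p = 0.782). The 3 pancreas animals were at −0.26, 0.20 and −0.057, with a mean of −0.037 ± 0.23 (SD, n = 3; limma, adjusted p = 0.992). Animals lay on both sides of 0 in each of these tissues. In pancreas the orientations were far apart, with Cy5 arrays from −1.72 to 0.033 and Cy3 arrays from −0.31 to 1.60. Orientation means differed in sign for 78% of genes in pancreas.

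Turning the sign of the Cy3 arrays moved the tissue means of all 3 genes. Should the deposited signs be knockout over pool, the turned means measure the gap between dye orientations and not genotype. Hikeshi then had a mean of −0.0098 in kidney, with 4 of 8 arrays below 0, and of −0.35 ± 0.20 (SD, n = 4) in pancreas, with 7 of 8 arrays below 0 (limma, adjusted p = 0.0768; 14.6% of genes in pancreas were called with this sign). Sytl2 was then at −0.23 ± 0.12 (SD, n = 4) in brain, below 0 on all 8 arrays, and at 0.38 ± 0.57 (SD, n = 4) in pancreas, the tissue with its highest mean under either sign. Isg20 was at −0.36 ± 0.18 in brain and −0.42 ± 0.34 in kidney (SD, n = 4), below 0 on all 8 arrays of both, and at −0.70 ± 0.87 (SD, n = 3) in pancreas. With the turned sign 3.81% of genes in brain and 3.24% in kidney lay below 0 on all 8 arrays.

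**Figure D2:**
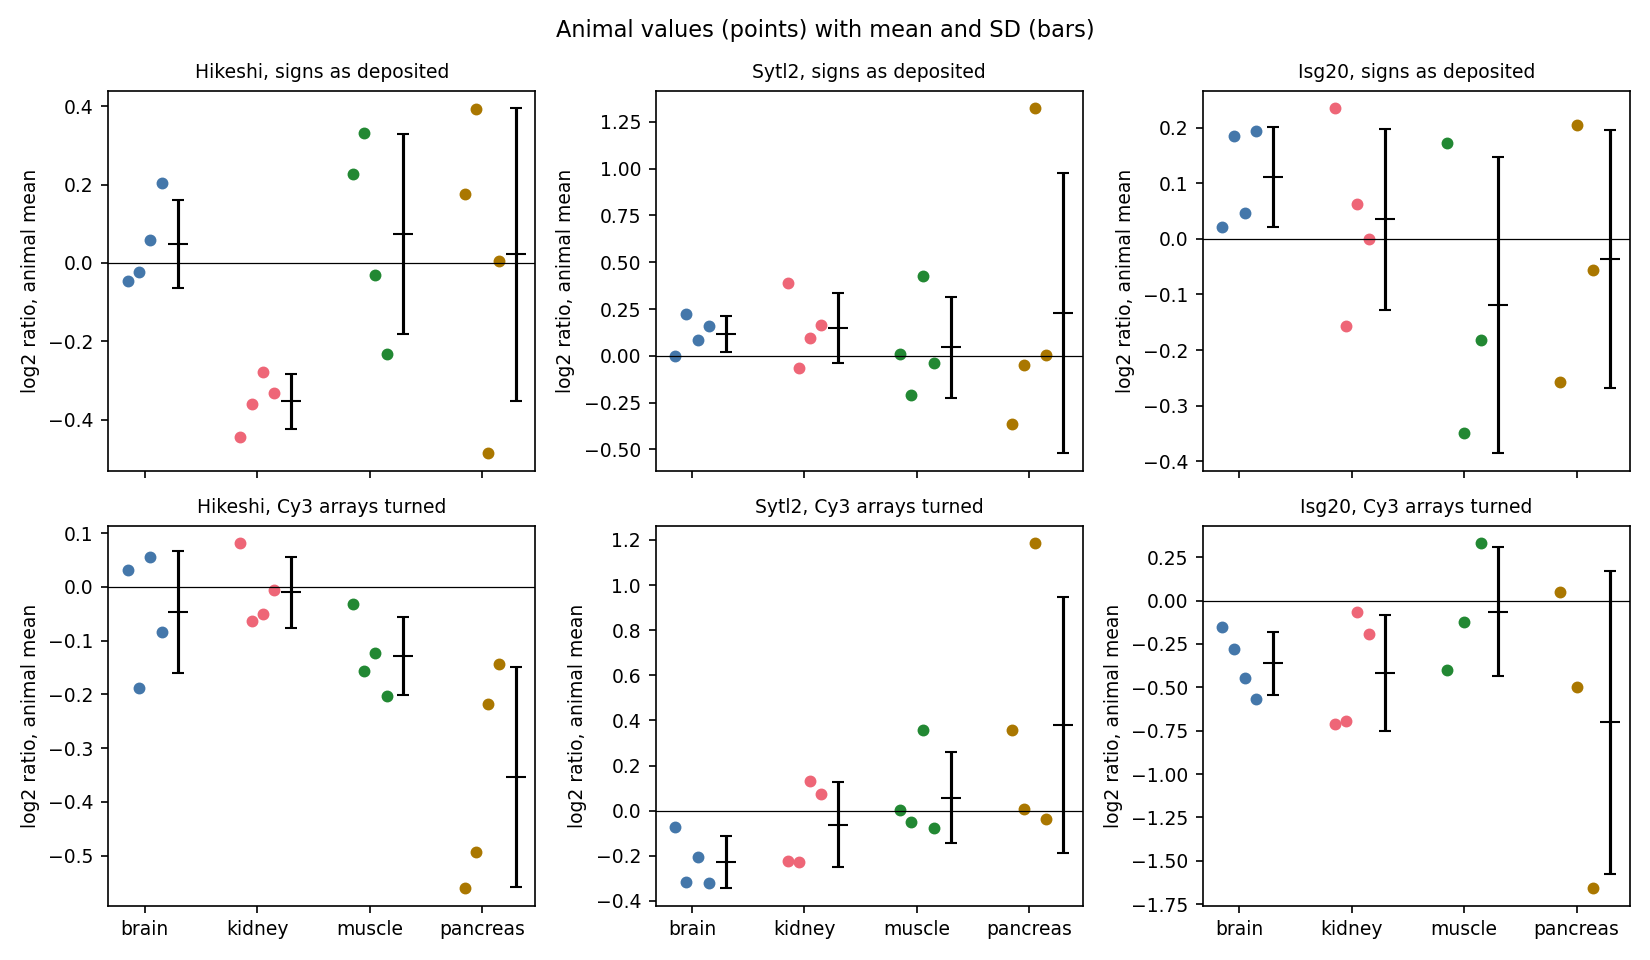
Animal means of the log2 ratio (points, 3 or 4 animals per tissue) with the tissue mean and SD (black bars), with signs as deposited (top) and with the Cy3 arrays turned (bottom); vertical scales differ between panels. Hikeshi is low in kidney at −0.35 in the top row and in pancreas at −0.35 in the bottom row, and Isg20 moves from means between −0.12 and 0.11 to means between −0.70 and −0.064.

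A shift shared by the tissues was tested on those that had not led to a gene's choice. For Hikeshi the mean over brain, muscle and pancreas was 0.12, 0.23, −0.15 and −0.0070 in animals 1 to 4. The mean of these was 0.048 ± 0.072 (SE, n = 4; 95% interval −0.13 to 0.23; limma, adjusted p = 0.945). For Sytl2 the mean over kidney, muscle and pancreas was 0.010, −0.11, 0.62 and 0.045, with a mean of 0.14 ± 0.13 (SE, n = 4; 95% interval −0.18 to 0.46; limma, adjusted p = 0.805). Animal 3 again stood above the others. Isg20 had all 3 tissues in too few animals for this test with both arrays required.

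Limma called 0 of 16146 genes (0%) over brain, muscle and pancreas and 0 of 16177 (0%) over kidney, muscle and pancreas, while 785 (4.86%) and 955 (5.9%) had an unadjusted p under 0.05. A member passed this test under 2 alternatives. With the Cy3 arrays turned, Hikeshi was at −0.18 ± 0.047 (SE, n = 4; limma, adjusted p = 0.0413) over brain, muscle and pancreas, where 30.6% of all genes were called. If the signs as deposited are knockout over pool, a turned mean measures the gap between dye orientations and not genotype. With the Cy5 arrays alone, Isg20 was at −0.41 ± 0.087 (SE, n = 4; limma, adjusted p = 0.0405) over kidney, muscle and pancreas, where 16.1% were called. In 1 dye orientation alone, dye and genotype cannot be told apart. With the Cy3 arrays alone Isg20 had all 3 tissues in too few animals for this test. Its means were then 0.45 in kidney (n = 4), −0.056 in muscle (n = 3) and 0.67 in pancreas (n = 3). With both dyes and 1 array of an animal allowed to suffice, it was at −0.077 (limma, adjusted p = 0.836).

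The difference among those tissues was not resolved for any member. Hikeshi differed by −0.025 ± 0.18 (SE) between brain and muscle, with a 95% interval from −0.42 to 0.37, and by 0.052 ± 0.18 between muscle and pancreas (limma F test over 3 tissues, adjusted p = 0.991). Sytl2 differed by −0.18 ± 0.30 (SE) between muscle and pancreas, with a 95% interval from −0.85 to 0.48 (limma F test, adjusted p = 0.965). Isg20 differed by 0.15 ± 0.16 (SE) between kidney and muscle, with a 95% interval from −0.20 to 0.51 (limma F test, adjusted p = 0.921). The F test called 0 of 16272 and 0 of 16287 genes (0% in each), while 1211 (7.44%) and 1209 (7.42%) had an unadjusted p under 0.05. From high to low, the Hikeshi means ran muscle, brain, pancreas, kidney; those of Sytl2 pancreas, kidney, brain, muscle; and those of Isg20 brain, kidney, pancreas, muscle. The last step of Hikeshi leads to the kidney value it was chosen on, so a wide step there is what the choice selects for. That kidney value was not tested. The orders of Sytl2 and Isg20 likewise include the brain values behind their choice. All other neighbours in these orders lay closer together than their SDs. The orders under the turned sign were kidney, brain, muscle, pancreas for Hikeshi, pancreas, muscle, kidney, brain for Sytl2, and muscle, brain, kidney, pancreas for Isg20.

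The genes beside each member on the chromosome gave a local view. Me3, a mitochondrial malic enzyme, precedes Hikeshi among measured genes, and Eed, a core subunit of Polycomb repressive complex 2, follows it. In kidney, where Hikeshi was at −0.35, Me3 was at −0.085 ± 0.057 (SE, n = 4) and Eed at −0.024 ± 0.038. Hikeshi was chosen on its kidney values and these flanking genes were not, so a gap between them is what the choice selects for. Ccdc83 and Crebzf, a basic leucine zipper factor, flank Sytl2. Ccdc83 was above 0 in all 4 tissues, at 0.23 ± 0.11 (SE, n = 4) in brain, 0.20 ± 0.065 in kidney, then 0.11 ± 0.060 in muscle and 0.18 ± 0.090 in pancreas. It was above 0 in all 4 animals of kidney and muscle, as were 10.1% and 6.96% of genes in all animals measured there. Crebzf was above 0 by 0.025 to 0.060 in the 4 tissues. Ccdc83, Sytl2 and Crebzf, which follow each other among measured genes, were the 3 of 36 genes within 50 of Nox4 with means above 0 in every tissue. That run was noticed after the values were seen and none of the genes passed (limma, adjusted p from 0.517 to 0.991 for Ccdc83). With the Cy3 arrays turned, Ccdc83 was below 0 in all 4 tissues (−0.36 to −0.10), as was Crebzf (−0.61 to −0.31). Around Isg20, the apoptosis-linked nuclease Aen lay between −0.080 and −0.012 and the cartilage proteoglycan Acan between −0.22 and −0.033. Both had means below 0 in all 4 tissues, as had 6.23% of all genes. Turning the Cy3 arrays took Aen in muscle and Acan in brain above 0.

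**Figure D3:**
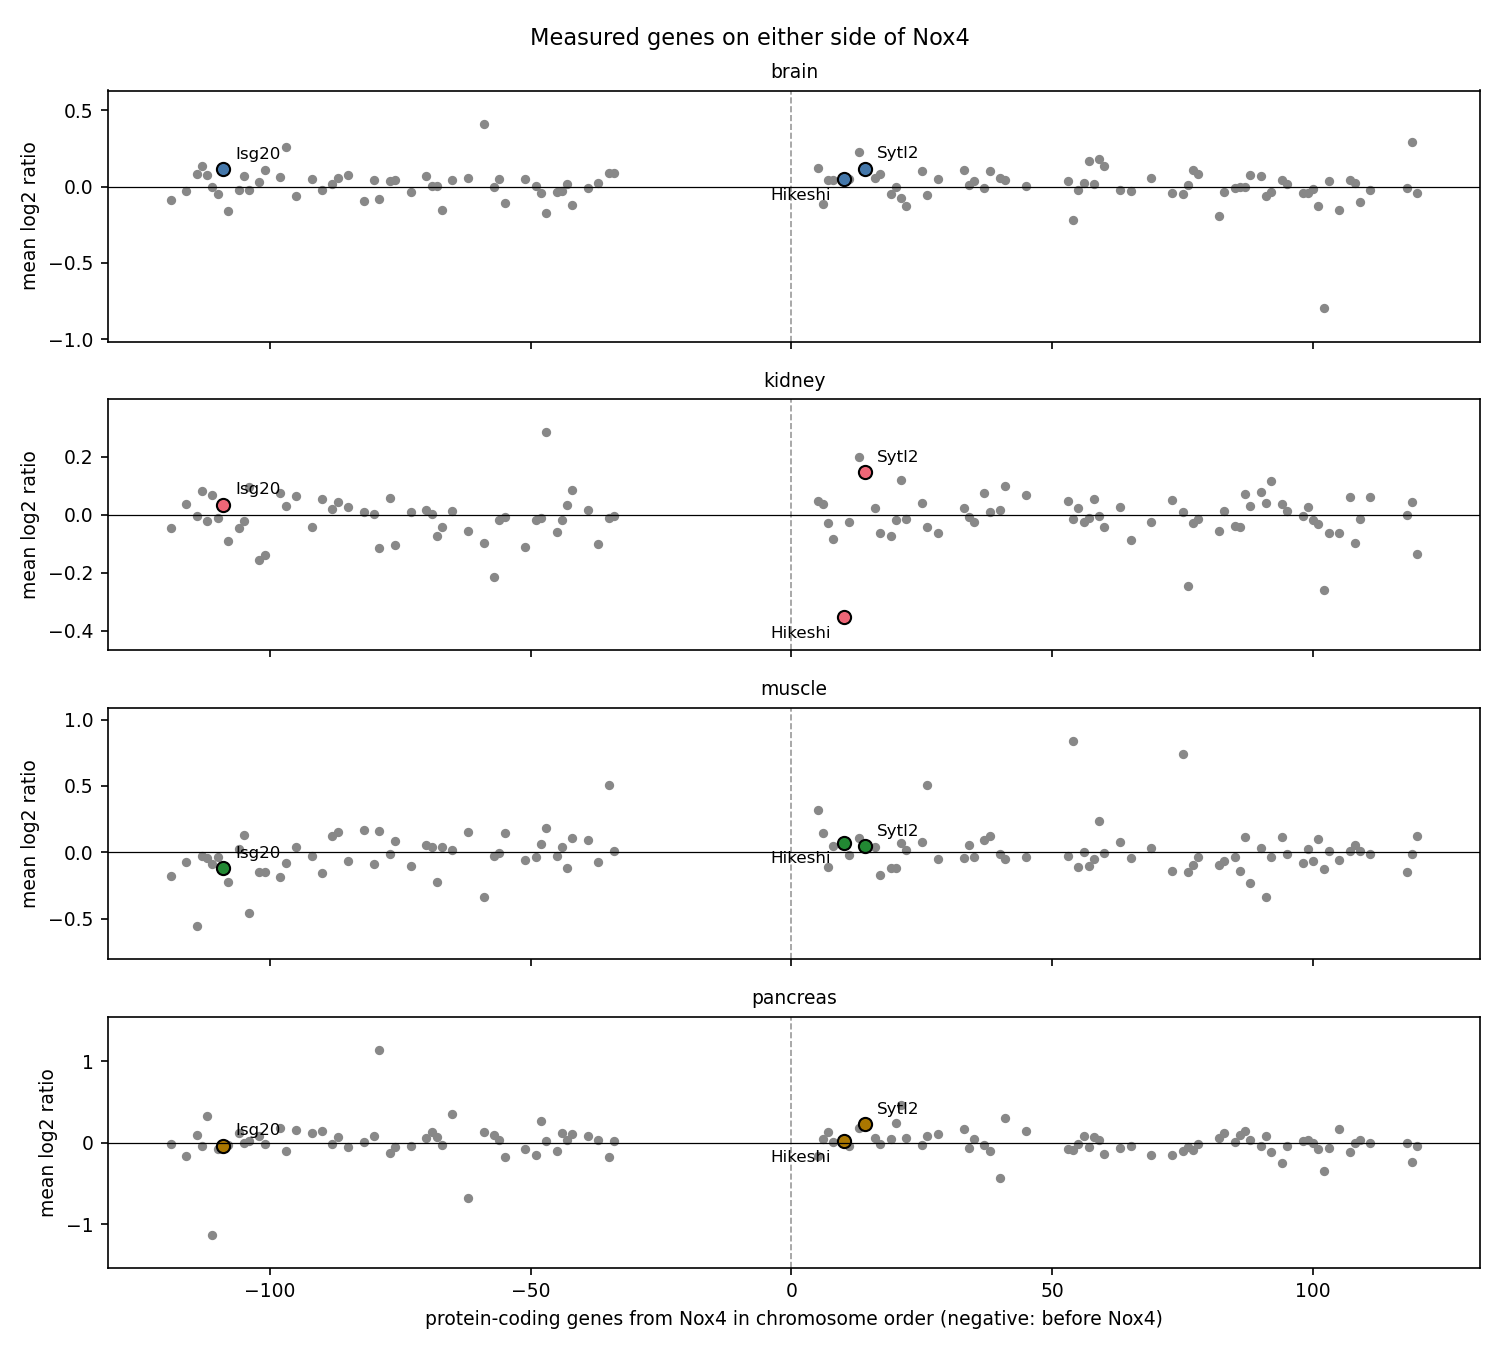
Mean log2 ratio in each tissue (vertical axis, scales differ) of measured genes within 120 protein-coding genes of Nox4, placed by their order on chromosome 7 (horizontal axis, 0 is Nox4), with Hikeshi, Sytl2 and Isg20 as large points. In kidney Hikeshi is at −0.35, while its measured flanking genes Me3 and Eed are at −0.085 and −0.024. Hikeshi was chosen on its kidney values and the flanking genes were not.

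Among the 36 measured genes within 50 protein-coding genes of Nox4, Hikeshi and Sytl2 included, 23 lay above 0 in brain (63.9%, against 53.6% of all genes), 17 in kidney (47.2% against 51.7%), 21 in muscle (58.3% against 41.3%) and 25 in pancreas (69.4% against 50.4%). In the same order of tissues their medians were 0.030, −0.0048, 0.041 and 0.043, beside 0.0078, 0.0029, −0.025 and 0.00075 for all genes. The 36 are not evenly placed: 11 lie before Nox4, the nearest 34 genes away, and 25 after it, the nearest 5 away. Of the 11 before, 5, 4, 7 and 8 lay above 0, and of the 25 after, 18, 13, 14 and 17. Means above 0 in all 4 tissues were found for 3 of the 36 and below 0 for 1, beside 5.46% and 6.23% of all genes. Farther out, 51 to 100 genes away, 31, 29, 22 and 27 of 55 lay above 0 in the same order of tissues, and in the next band, up to 200 genes away and with Isg20, 28, 22, 16 and 19 of 54. Means above 0 in all 4 tissues were found for 4 of the 55 and 1 of the 54, and below 0 for 2 and 8. Under the turned sign the nearest 36 had 19, 17, 14 and 21 above 0, the next 55 had 24, 29, 33 and 29, and the outer 54 had 31, 25, 23 and 25. The turned shares over all genes were 54.4%, 48.9%, 49.6% and 48.1%.

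By smallest p, the other genes near Nox4 differed from tissue to tissue. In brain they were Alg8, a glucosyltransferase of N-glycan assembly, at 0.11 ± 0.041 (SE, n = 4), and Fzd4, a Frizzled receptor of Wnt and norrin signals, at −0.12 ± 0.055. In kidney they were Ccdc83 and Arnt2, a partner of PAS-domain transcription factors, at −0.10 ± 0.036. In muscle Fam181b was at 0.51 ± 0.15 and Tmem135 at 0.32 ± 0.089. Fam181b lay above 0 on all 8 muscle arrays, as did 1.56% of genes there. In pancreas Ccdc90b was at 0.25 ± 0.095 and Clns1a, a chaperone of spliceosome assembly, at −0.43 ± 0.19. None passed the test, and with the Cy3 arrays turned Alg8, Fzd4, Ccdc83, Arnt2 and Tmem135 changed side.

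None of the measured genes listed as acting with a member passed the test. Their counts above 0 are to be read beside 53.6% of all genes for brain, 51.7% for kidney, 41.3% for muscle and 50.4% for pancreas. Of 24 measured genes of HSP70 and nuclear import, the setting of Hikeshi, 8 lay above 0 in brain, 12 in kidney, then 11 in muscle and 13 in pancreas, with medians between −0.011 and 0.017, and 0 were called in any tissue. The smallest p belonged in kidney to Dnajb1, an HSP40 co-chaperone of HSP70, at −0.23 ± 0.047 (SE, n = 4; limma, adjusted p = 0.511), and in brain to the inducible HSP70 gene Hspa1a at −0.16 ± 0.065. In muscle and pancreas it belonged to its near-identical copy Hspa1b, at 0.46 ± 0.12 and −0.49 ± 0.21. A cDNA probe may not tell these copies apart, yet Hspa1a was at −0.0096 ± 0.070 in muscle and −0.030 ± 0.069 in pancreas.

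A list of vesicle release genes around Rab27 and Sytl2 had 18 measured genes. Rab27a and Rab27b were not among them, and Sytl3 was the only synaptotagmin-like gene. Of the 18, 5 lay above 0 in brain, 5 in kidney, then 9 in muscle and 7 in pancreas, and 0 were called. By smallest p they were led in brain by Stxbp2, which assists vesicle fusion, at 0.17 ± 0.056 (SE, n = 4). Stxbp2 lay above 0 on all 8 brain arrays, as did 0.404% of genes there. In kidney the lead was the syntaxin Stx1a at −0.14 ± 0.049. In muscle it was the vesicle priming factor Unc13b at 0.72 ± 0.11, and in pancreas Cadps, which primes dense-core vesicles, at −0.52 ± 0.14. Of 29 measured interferon-stimulated genes (26 in pancreas), 12 lay above 0 in brain, 17 in kidney, then 16 in muscle and 20 in pancreas, and 0 were called. Their leading genes were the chemokine Cxcl9 at −0.27 ± 0.062 (SE, n = 4) in brain, the peptide transporter Tap1 at −0.19 ± 0.044 in kidney, then Ifi35 at −0.35 ± 0.13 in muscle and Ifitm1 at 0.30 ± 0.083 in pancreas. Leukocyte markers, which could carry Isg20, had 7 of 14 genes above 0 in brain, 7 of 14 in kidney, then 4 of 14 in muscle and 9 of 13 in pancreas, and 0 were called. Their medians were 0.0020, 0.000063, −0.052 and 0.042 in the same order. Their mean over the list ran over animals from −0.57 to −0.067 in brain, −0.025 to 0.043 in kidney, −0.13 to −0.0086 in muscle and −0.12 to 0.27 in pancreas, and their part in the Isg20 values was not tested. The low brain means rest on Cd4, a T cell marker, at −2.54 ± 1.51 (SE, n = 4), while the other 13 markers lay between −0.23 and 0.10. With the Cy3 arrays turned, Hspa1a, Stxbp2, Unc13b, Cadps, Cxcl9, Ifi35, Ifitm1 and, in pancreas, Hspa1b changed side of 0.

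The genes whose values followed a member most closely were sought over animals and tissues, as a description without a test. Over 16 animal-by-tissue values, the highest Pearson r with Hikeshi among 7852 genes belonged to Ssr2, a subunit of the translocon-associated complex, at 0.940, Dnajb1 at 0.923 and Trip10, a membrane-curving adaptor, at 0.914. The 16 values share 4 animals and 1 pool per tissue, and they include the kidney values on which Hikeshi was chosen. Dnajb1, which starts the ATP cycle of the chaperone that Hikeshi imports, was at −0.22, −0.23, −0.13 and −0.34 in the 4 kidneys, all below 0 as Hikeshi was. It also took the highest and the lowest pancreas value in the animals in which Hikeshi did, 0.42 in animal 2 and −0.42 in animal 3. Ssr2 and Trip10 did the same, at 0.23 and 0.37 in animal 2 and −0.37 and −0.42 in animal 3, and were also below 0 in all 4 kidneys. The 3 genes were picked by r over these same values, so shared lows and highs are what the choice selects for. For Dnajb1, with each tissue centred on its own mean r was 0.911, over the 32 single arrays it was 0.846, and it dropped to 0.620 once the Cy3 arrays were turned. Trip10 was higher on all of these, at 0.971, 0.857 and 0.774. Ssr2 was at 0.939, 0.753 and 0.430.

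**Figure D4:**
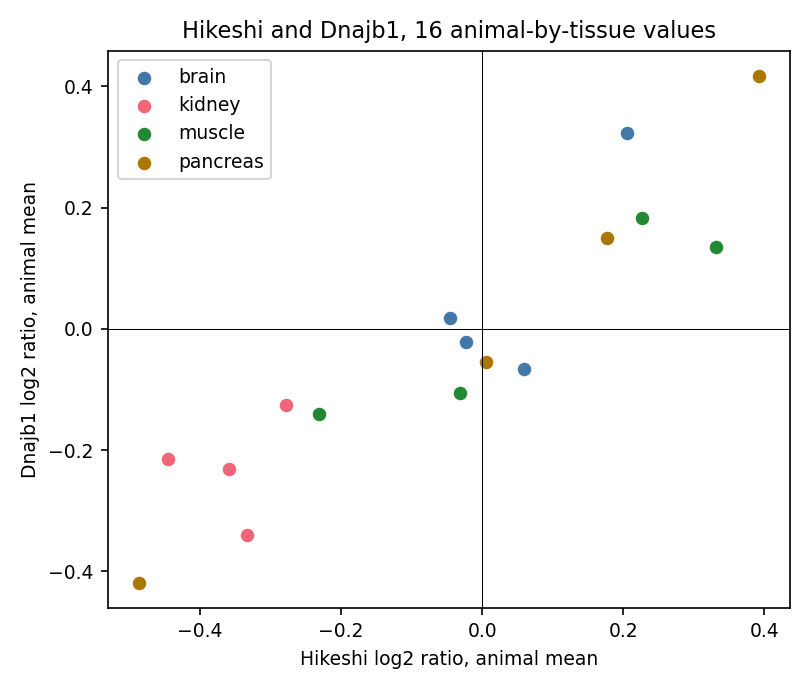
Animal means of the log2 ratio of Hikeshi (horizontal axis) and Dnajb1 (vertical axis) in 4 tissues of 4 animals, 16 points coloured by tissue. The 4 kidney points lie at the lower left, below 0 for both genes, and the pancreas points span from −0.49 and −0.42 in animal 3 to 0.39 and 0.42 in animal 2. Dnajb1 was picked for its high r over these 16 points.

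For Sytl2 the closest were Llph at 0.913, Klk1b16, a kallikrein that is also on chromosome 7, at 0.900, and Rrbp1, a ribosome-binding protein of the endoplasmic reticulum, at 0.893. Animal 3 in pancreas was high in all of these, at 2.72 in Llph, 1.87 in Klk1b16 and 0.88 in Rrbp1, beside 1.33 in Sytl2. Such a shared high value is likewise what a choice by r selects for. For Isg20, over the 14 values it had, the closest were Ing2, a chromatin reader, at 0.974, Kcmf1, a ubiquitin ligase, at 0.878, and Mbl1, a mannose-binding lectin, at 0.870. With the Cy3 arrays turned these values of r fell to between 0.15 and 0.85 for Sytl2 and between 0.34 and 0.59 for Isg20.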

How the data were processed

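RNA of 4 tissues from 4 knockout animals was set against a wild-type pool on 32 two-channel cDNA arrays, per the labels. The authors deposited log2 ratios, 1 per probe and array; the base of the logarithm is inferred from the size of floor values. How the spots were scanned, corrected and normalised is not given in the sources at hand. Arrays held 19815 to 20684 values of 20794 probes, with medians from −0.07 to 0.05. Precision is limited by the 4 animals per tissue and by the wild-type pool as the only control. Values beyond 8 in size (1844) were positive on Cy5 arrays (920) and negative on Cy3 arrays (924), and were kept. Read as knockout over pool, the signs as deposited put Cy5 above Cy3 in all of these values. With the Cy3 arrays turned, all of these values would put the knockout above the pool.

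A probe annotation table gave 12771 probes 1 symbol, 0 several and 8023 none; all 9030 symbols were used as given. RefSeq (GRCm38.p6) served for gene order alone. Probes of a symbol were averaged, then the 2 arrays of an animal, both required. Limma 3.58.1 (R 4.3.3; lmFit, eBayes, two-sided) tested means against 0 with at least 3 animals, and tissue differences with a moderated F test; scripts were tested on simulated data. The pool counts as 1 control, so its own spread is left out. SE is the moderated error and SD the spread between animals.

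The members and lists were chosen with earlier results of these data known. Named genes are the members, their measured flanking genes, the 2 genes of smallest p within 50 genes of Nox4 in each tissue, the gene of smallest p of each list of partner genes in each tissue, and the 3 genes of highest r. Marker lists of the 4 tissues are given in the closing section. By the mouse identifiers in the labels the same 4 animals gave all tissues, which pairs them; deviations of an animal from the tissue means had r between −0.072 and 0.077 from tissue to tissue. The alternatives tried were floor values as missing, centring, scaling, turned signs, single dye orientations, 1 array per animal, robust moderation, an 8-array fit, the animal as a block and each animal left out.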

Additional observations from a re-analysis of the deposited data

Results flagged for a closer look

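Among 62 groups of 4 animal values of the members and of the named genes near Nox4, 2 had an animal that stood apart from the other 3, where chance marks about 1 in 20 groups. For Eed in kidney it was animal 1, at −0.0845, with the other animals between −0.0078 and 0.0040. For Ccdc90b in muscle it was animal 3, at −0.0468, with the other animals between −0.15 and −0.14. Ccdc90b also took opposite sides in 2 tissues, above 0 in all 4 pancreas animals (mean 0.25) and below 0 in all 4 muscle animals (mean −0.12), a difference of 0.367 that was not tested. In all animals measured, 5.69% of genes lay above 0 in pancreas and 12.4% below 0 in muscle. The means of Ccdc90b with the Cy3 arrays turned were above 0 in both, 0.45 and 0.081. None of the 3 members met these criteria.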

How the results depend on the processing

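Of 144 recomputed member values 129 stayed within 1 SD of the value reported; the 15 that moved further came from turning the Cy3 arrays or from a single dye orientation. Over single animals left out, Hikeshi in kidney, the value it was chosen on, ran from −0.38 to −0.32. Its other means ran from −0.0035 to 0.080 in brain, −0.012 to 0.18 in muscle and −0.10 to 0.19 in pancreas. Each member has 1 probe, so probes could not be taken singly. The numbers of genes called, 0 in every main test, moved as follows. With floor values as missing they were 1 in kidney (Stk32b) and 1 for the difference among kidney, muscle and pancreas (Man1c1). With the Cy3 arrays turned they were 1 in brain (Ppm1b), 328 in muscle, 2388 in pancreas, 4937 for the mean over brain, muscle and pancreas, 5928 for the mean over kidney, muscle and pancreas, and 20 for the difference among brain, muscle and pancreas. With Cy5 arrays alone they were 1 in brain, 1 in pancreas, 2251 and 2650 for the same means, and 4 and 2 for the differences. With Cy3 arrays alone they were 1 in muscle, 889 and 2473 for the means. Robust moderation called 1 in kidney (Stk32b), and the 8-array fit 8 in kidney and 1 in muscle, with an estimated within-animal correlation of −0.284 in kidney. Leaving out an animal gave 0 to 1 in brain, 0 to 1 in muscle, 0 to 1 for the mean over kidney, muscle and pancreas, 1 to 5 for the difference among brain, muscle and pancreas and 0 to 2 for that among kidney, muscle and pancreas, with no member called. With the animal as a replicate block the differences gave 0 calls, and no call changed. Within 25 genes of Nox4 all 15 measured genes lie after it, and 10, 7, 10 and 11 were above 0 in brain, kidney, muscle and pancreas. Within 100 genes 54, 46, 43 and 52 of 91 were above 0. The cause of these changes was not tested.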

Other observations

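Markers of the labelled tissues had medians between −0.10 and 0.025 in their own tissue. Counts above 0 are to be read beside 53.6% of all genes for brain, 51.7% for kidney, 41.3% for muscle and 50.4% for pancreas. Brain markers had 2 of 4 genes above 0 in brain, with a median of −0.015 and values from −0.18 to 0.11. Kidney markers had 2 of 5 above 0 in kidney, with a median of −0.010. Muscle markers had 1 of 5 above 0 in muscle, with a median of −0.10 and the oxygen-binding protein gene Mb at −0.36, and pancreas markers 2 of 3 in pancreas, with a median of 0.025. None of the markers passed limma in any tissue.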
